A study of Mus musculus with 9 samples.

Results

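Proteasome genes were followed by RNA sequencing of total RNA from MIN6, an insulin-secreting line derived from a mouse insulinoma that stands in for pancreatic beta cells. They were taken as every protein-coding gene whose symbol begins with Psma, Psmb, Psmc, Psmd, Psme, Psmf or Psmg followed by a number, which gave 50 of the 21940 protein-coding genes in the table. Libraries came from 3 groups of 3. The EGCG group held cells given epigallocatechin gallate, a catechin of green tea, on top of Nr4a1 overexpression. The overexpression group carried extra Nr4a1, an orphan nuclear receptor, without the compound. The control group held untransfected cells, so the act of transfection and the extra Nr4a1 cannot be told apart in any comparison with control. How much EGCG was used, for how long, and how Nr4a1 was delivered is not stated in the labels. The labels do not say whether replicates came from separate cultures, so p-values measure only the spread between these libraries.

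The proteasome is the cell's main machine for degrading proteins tagged with ubiquitin. Its barrel-shaped core consists of outer rings of alpha subunits, which gate the entrance, and inner rings of beta subunits, of which Psmb5, Psmb6 and Psmb7 cut the substrate. A regulatory cap recognises, deubiquitinates and unfolds the substrate with a ring of ATPases at its base and a lid above it. In cells exposed to interferon the cutting subunits are exchanged for Psmb8, Psmb9 and Psmb10, which gives the immunoproteasome and alters the peptides offered on class I molecules. Genes of the constitutive particle are known to be switched on together by the transcription factor Nfe2l1 when proteasome activity runs short. Beta cells, which fold large amounts of proinsulin, depend on the proteasome to remove misfolded protein.

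Values are TPM, the length-corrected share of each transcript in its library, as the authors deposited them, here summed over the transcripts of each gene. TPM keeps no record of sequencing depth, so depth is unknown and no counting interval is given. Nr4a1 was at 53.9 ± 7.35 TPM with EGCG, 138.7 ± 23.1 TPM with overexpression and 0.723 ± 0.0814 TPM in control (SD, n = 3 each), so the EGCG cells differed from the overexpressing cells in Nr4a1 as well as in the compound. Of 8 beta cell markers all were detected, with a summed level of 4770 to 5116 TPM with EGCG, 6580 to 6884 TPM with overexpression and 4796 to 4888 TPM in control. The glucose transporter Slc2a2 was at 3.14, 0.647 and 1.07 TPM by mean in the same 3 groups. Single markers differed more than the sum, with 4 higher and 4 lower with EGCG than in control. Among the lower were Nkx6-1, at means of 2.46 and 4.73 TPM, Pdx1, at 33.7 and 42.4 TPM, and Chga, at 793 and 1114 TPM. Glucagon (Gcg), which marks alpha cells, was also present at 290 to 323.5 TPM with EGCG, 726.5 to 807.7 TPM with overexpression and 313.9 to 332.0 TPM in control, while Sst and Ppy stayed under 0.2 TPM. No marker of fibroblasts, endothelium, leukocytes, acinar or ductal cells exceeded 0.47 TPM in any library. Genes of olfactory, vomeronasal and trace-amine receptors summed to 9.29 to 13.8 TPM with EGCG, 4.78 to 5.42 TPM with overexpression and 61.3 to 121.1 TPM in control. Small structured RNAs held 55.9% to 56.9%, 55.8% to 56.2% and 53.3% to 54.1% of the TPM of these groups. The part of Gcg, of the receptor genes and of the small RNAs in the results on the proteasome was not tested.

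Together the 50 genes summed to 1291, 1334 and 1284 TPM in the EGCG libraries, to 1761, 1708 and 1720 TPM with overexpression and to 1236, 1248 and 1287 TPM in control. The overexpression libraries lay above all others, and the EGCG and control libraries overlapped. As a share of all nuclear protein-coding TPM the sum was 0.634% ± 0.0118 with EGCG, 0.757% ± 0.00513 with overexpression and 0.584% ± 0.0191 in control (SD, n = 3 each). On this scale the EGCG and control libraries did not overlap, at 0.621% to 0.644% with EGCG and 0.572% to 0.606% in control. Whether EGCG and control differed in the sum thus depended on the scale. A level of at least 1 TPM in at least 3 libraries was required for a test, and 48 of the 50 genes passed. The other two were Psma8, an alpha subunit of the testis, and Psmb11, the catalytic subunit of the thymus. Psma8 was listed at 0 in every EGCG and overexpression library and at 0.02 to 0.15 TPM in control, and Psmb11 was at 0.01 TPM in the EGCG libraries, listed at 0 with overexpression and at 0.07 to 0.2 TPM in control.

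The first comparison asked what Nr4a1 overexpression did to these genes relative to untransfected cells. Of the 48 tested genes, 39 rose, 2 fell and 7 were not called at a Benjamini-Hochberg adjusted p of 0.05 (limma on log2(TPM + 1), adjusted over all 11950 genes tested). Over all genes tested, 59.5% changed by the same rule, 38.2% rising and 21.3% falling. The median log2 fold change was 0.415 over the 48 genes and 0.095 over all genes tested. In 41 genes every overexpression library lay above every control library, in 2 every one lay below, and in 5 the groups overlapped, against 41.3% of all tested genes lying wholly above and 23.6% wholly below. Most changes were moderate, and only Psmb4 and Psmb10 rose at least 2-fold on the log2(TPM + 1) scale, which understates the change of genes at low TPM. The 7 genes not called were Psmc6, Psmd3, Psmd7, Psmd10, Psme1, Psme3 and Psmg4. Under median-ratio scaling 32 of the genes rose and 2 fell, and under quantile normalization 31 rose and 4 fell, the added ones being Psmc6 and Psme3. The rises not called under either scaling were those of Psma2, Psma3, Psma7, Psmc3ip, Psmd4, Psmd8 and Psmd11, and under quantile normalization also that of Psmd14. Over all tested genes the counts of 4561 higher and 2545 lower became 3541 and 3547 under median-ratio scaling.

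**Figure D1:**
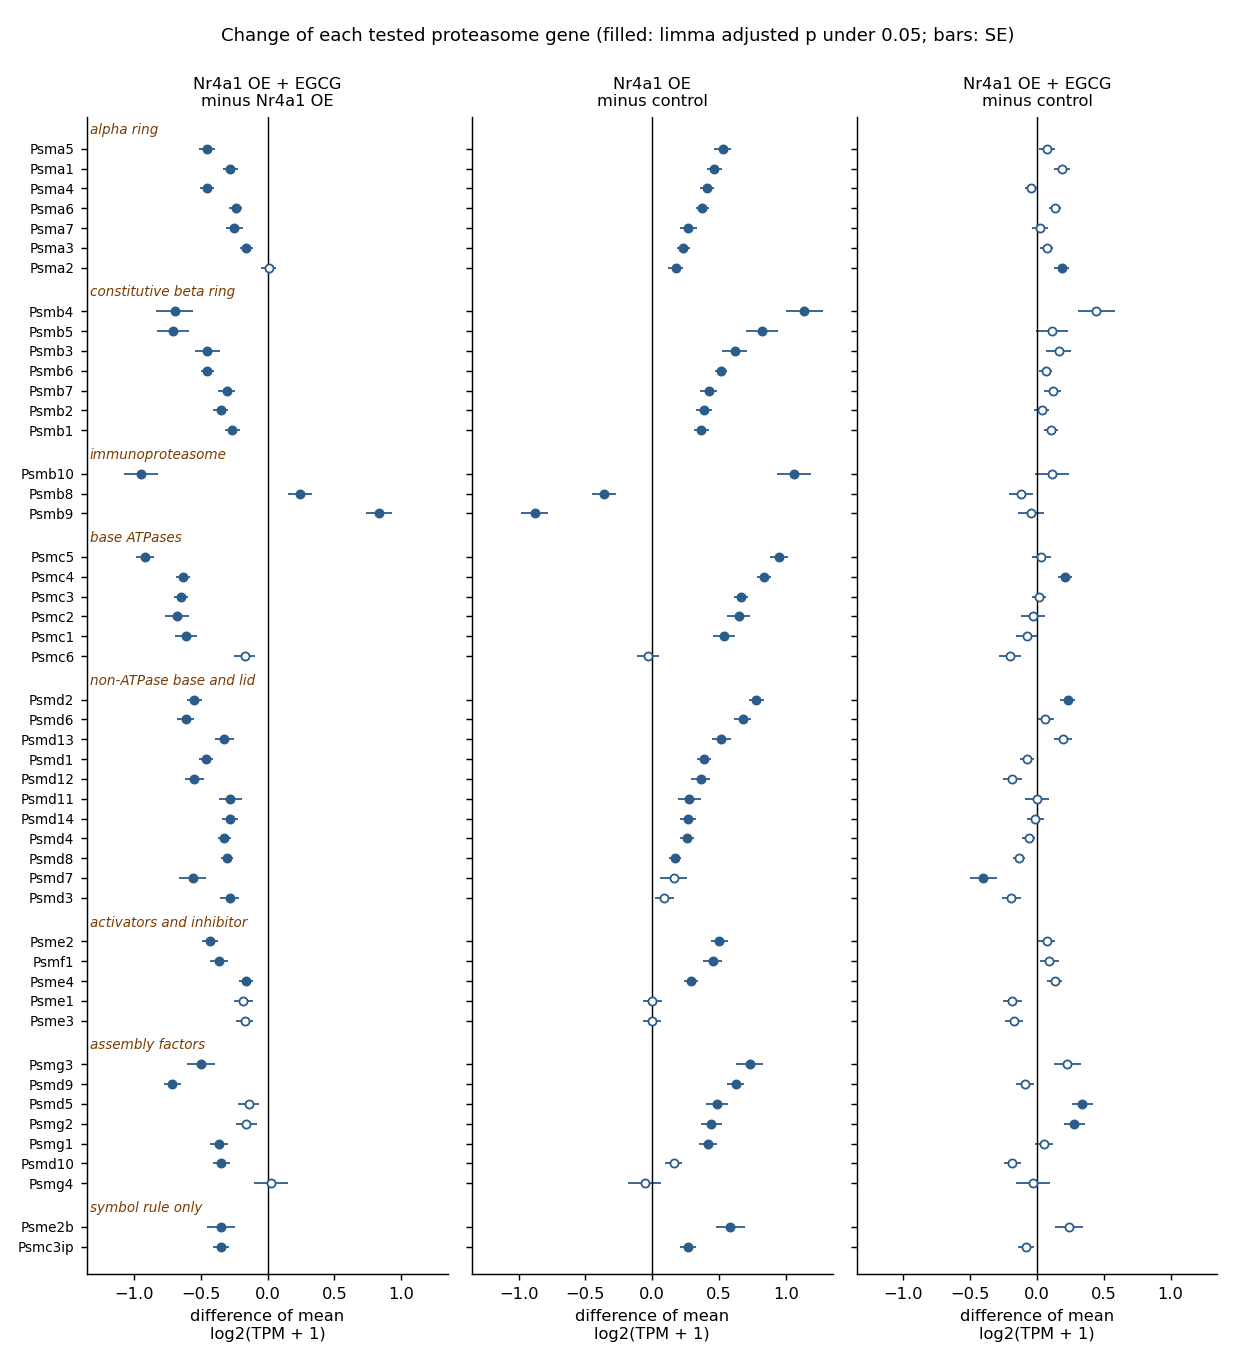
Difference in mean log2(TPM + 1) of each tested proteasome gene (x axis, log2 units; bars are limma's SE) in EGCG against overexpression, overexpression against control and EGCG against control, with genes on the y axis grouped by role. Filled points passed a limma adjusted p of 0.05: 39 genes lie to the right and 2 to the left in overexpression against control, 2 to the right and 39 to the left in EGCG against overexpression.

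All 7 subunits of the constitutive beta ring rose with overexpression, with a median log2 fold change of 0.514 and a range of 0.367 to 1.139. Psmb5, which carries the chymotrypsin-like activity, was at 43.4, 40.8 and 40.1 TPM with overexpression and at 19.2, 23.4 and 27.2 TPM in control (log2 fold change 0.82 ± 0.12 SE; limma adjusted p = 0.000373). Every overexpression library exceeded every control library. Psmb6, the caspase-like subunit, was at 113.5, 108.5 and 108.1 TPM with overexpression and at 75.9, 75.01 and 79.3 TPM in control (0.51 ± 0.0474 SE; limma adjusted p = 2.41e-05). Psmb7, the trypsin-like subunit, was at 57.5, 59.2 and 57.6 TPM with overexpression and at 40.1, 42.7 and 47.0 TPM in control (0.42 ± 0.0633 SE; limma adjusted p = 0.000427). Neither subunit overlapped between the groups. The largest fold change of the ring belonged to Psmb4, a subunit without catalytic activity whose tail helps to join the assembling rings of the core. Psmb4 was at 85.9, 86.6 and 85.0 TPM with overexpression and at 33.0, 34.4 and 49.9 TPM in control (1.14 ± 0.141 SE; limma adjusted p = 0.000136). Its overexpression values were nearly equal, whereas the third control library was well above the other two; without that library the log2 fold change was 1.32. The smallest changes were those of the structural subunits Psmb1 (0.37 ± 0.054 SE; limma adjusted p = 0.000375) and Psmb2 (0.39 ± 0.057 SE; limma adjusted p = 0.000376).

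The 3 detected immunoproteasome subunits did not move alike. Psmb8, the inducible counterpart of Psmb5, was at 6.41, 5.54 and 5.15 TPM with overexpression and at 7.39, 8.24 and 7.19 TPM in control, and fell by 0.36 on the log2 scale (SE 0.0896; limma adjusted p = 0.00681). Psmb9, the counterpart of Psmb6, was at 0.89, 0.71 and 0.85 TPM with overexpression and at 2.23, 2.8 and 2.04 TPM in control, and fell by 0.88 (SE 0.0985; limma adjusted p = 7.46e-05). Both were lower in each overexpression library than in any control library, and both were called lower in every alternative processing in which they were tested. In a fit of all single transcripts Psmb8-201, Psmb8-203, Psmb8-205 and Psmb9-204 were not called (limma adjusted p = 0.101, 0.148, 0.358 and 0.062). Psmb10, the counterpart of Psmb7, was at 7.21, 8.99 and 7.73 TPM with overexpression and at 3.16, 3.30 and 3.40 TPM in control, and rose by 1.06 ± 0.129 SE (limma adjusted p = 0.000122). Of the TPM of Psmb10, 20.2% ± 4.58 with EGCG, 18.8% ± 4.96 with overexpression and 16.1% ± 6.9 in control (SD, n = 3 each) came from its protein-coding transcript, Psmb10-201. That transcript was at 1.70, 1.23 and 1.48 TPM with overexpression and at 0.62, 0.27 and 0.70 TPM in control. It reached 1 TPM only in the overexpression libraries. Psmb8 and Psmb9 lie together with Tap1 and Tap2, which form the peptide transporter of antigen presentation, on chromosome 17. Tap1 overlaps Psmb9 on the opposite strand, and the strand setting of the counting is not stated, so reads of the 2 genes may not have been kept apart. Neither transporter gene was called in this comparison: Tap1 was at 3.29 ± 0.644 and 3.64 ± 0.481 TPM and Tap2 at 1.85 ± 0.0751 and 1.97 ± 0.0289 TPM in overexpression and control libraries (SD, n = 3 each).

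**Figure D2:**
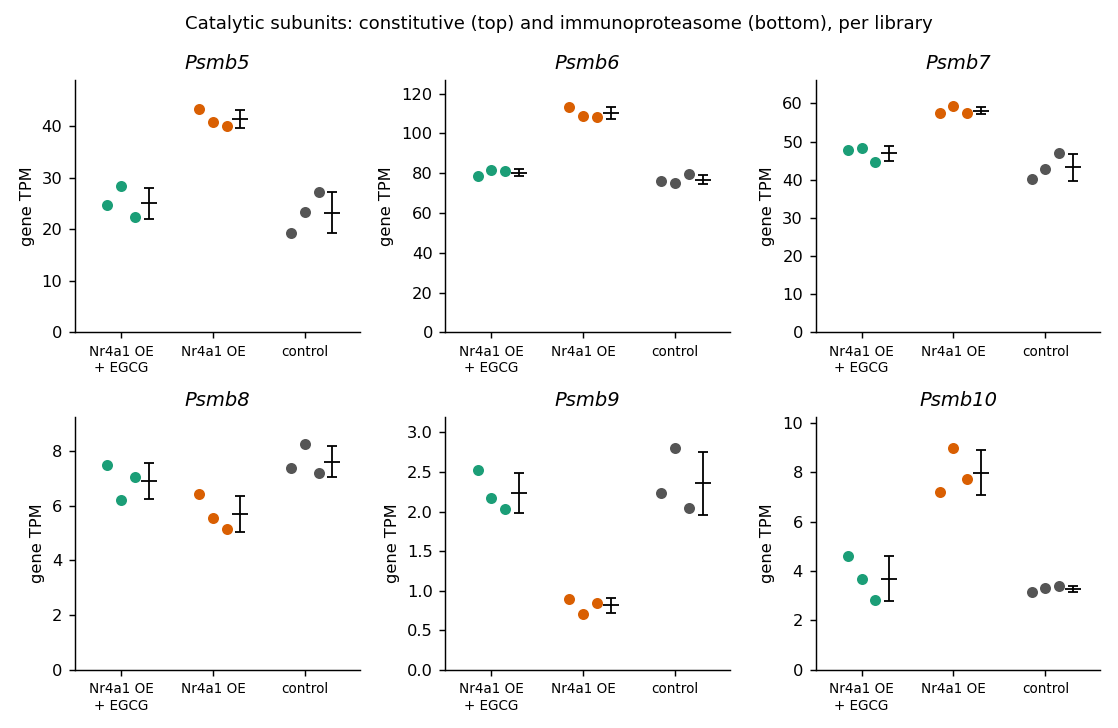
Gene TPM (y axis, linear from 0) of the 3 constitutive catalytic subunits (top) and their immunoproteasome counterparts (bottom) in each library, with the mean and SD of 3 libraries beside the points. Psmb5, Psmb6, Psmb7 and Psmb10 are highest in the overexpression libraries, whereas Psmb8 and Psmb9 have their lowest mean there.

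With EGCG the order of these levels was closer to that of control cells. Psmb5 was at 24.6, 28.3 and 22.4 TPM with EGCG, wholly below the overexpression libraries, and fell by 0.71 (SE 0.12; limma adjusted p = 0.00111 for EGCG against overexpression). Psmb6, at 78.3, 81.6 and 80.9 TPM with EGCG, fell by 0.45 (SE 0.0474; limma adjusted p = 7.22e-05). Psmb7, at 47.8, 48.2 and 44.6 TPM, fell by 0.30 (SE 0.0633; limma adjusted p = 0.00334). None of the 3 overlapped the overexpression values. Psmb10 was at 4.60, 3.67 and 2.81 TPM with EGCG and fell by 0.95 (SE 0.129; limma adjusted p = 0.00032). Psmb9 was at 2.52, 2.17 and 2.03 TPM with EGCG and rose by 0.83 ± 0.0985 SE relative to overexpression (limma adjusted p = 0.000138). Psmb8 was at 7.5, 6.2 and 7.05 TPM with EGCG, which overlapped the overexpression values, and its rise of 0.24 ± 0.0896 SE passed narrowly (limma adjusted p = 0.0465) and was called in 13 of 21 alternatives.

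The ratio of an inducible subunit to its constitutive counterpart within a library does not depend on the scale of that library. Psmb8 stood at 30.4%, 21.9% and 31.5% of Psmb5 with EGCG, at 14.8%, 13.6% and 12.8% with overexpression and at 38.4%, 35.3% and 26.4% in control. Psmb9 stood at 3.22%, 2.66% and 2.51% of Psmb6 with EGCG, at 0.78%, 0.65% and 0.79% with overexpression and at 2.94%, 3.73% and 2.57% in control. In both ratios the overexpression libraries lay below all 6 others. Psmb10 went the other way, at 9.62%, 7.61% and 6.29% of Psmb7 with EGCG, 12.5%, 15.2% and 13.4% with overexpression and 7.88%, 7.73% and 7.24% in control. The mean log2 ratio in overexpression minus that in control was -1.27 for Psmb8 to Psmb5, -2.04 for Psmb9 to Psmb6 and 0.84 for Psmb10 to Psmb7. The corresponding differences of EGCG minus overexpression were 1.01, 1.91 and -0.82. Each had an exact two-sided permutation p of 0.1, the smallest that 3 libraries against 3 allow, so none could pass 0.05. EGCG minus control gave -0.26, -0.13 and 0.02, with overlapping groups and exact permutation p-values of 0.4, 0.6 and 1.0. From protein-coding transcripts alone, Psmb10 was at 1.55% ± 0.075 of Psmb7 with EGCG, 2.55% ± 0.446 with overexpression and 1.24% ± 0.52 in control (SD, n = 3 each).

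**Figure D3:**
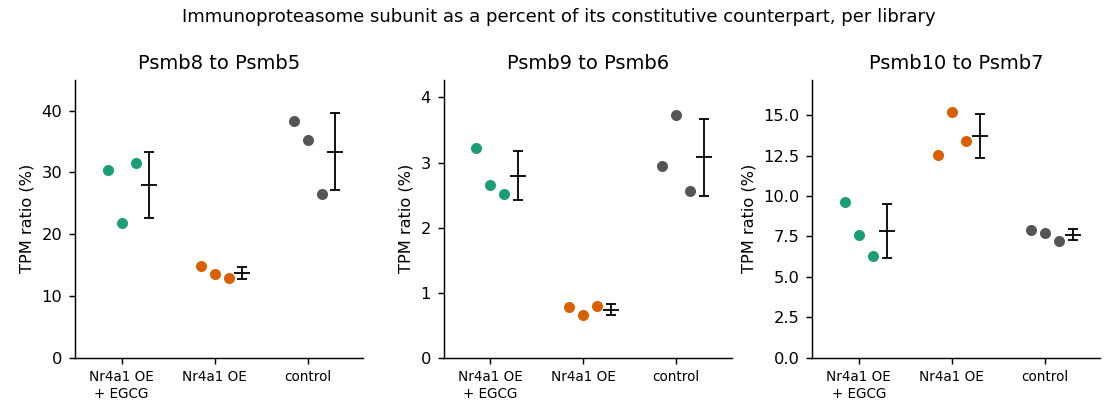
TPM of each immunoproteasome subunit as a percent of its constitutive counterpart (y axis, linear from 0) in each library, with the mean and SD of 3 libraries beside the points. The overexpression libraries are lowest for Psmb8 to Psmb5 and Psmb9 to Psmb6 and highest for Psmb10 to Psmb7.

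Psmb7 and its inducible counterpart Psmb10 both rose with overexpression, and their promoters are not shown. Because the pairs Psmb5 with Psmb8 and Psmb6 with Psmb9 differed in direction, their promoters are shown, from 250 bases before to 50 after the start site. They come from RefSeq (build GRCm38.p6, older than the build of the files, and matched by symbol): chr14:54617946-54618245 on the minus strand for Psmb5, chr17:34197945-34198244 on the plus strand for Psmb8, chr11:70525107-70525406 on the plus strand for Psmb6 and chr17:34187281-34187580 on the minus strand for Psmb9. Each is written 5′ to 3′ along the gene, and capitals mark matches to the motifs listed after the sequences.
Psmb5: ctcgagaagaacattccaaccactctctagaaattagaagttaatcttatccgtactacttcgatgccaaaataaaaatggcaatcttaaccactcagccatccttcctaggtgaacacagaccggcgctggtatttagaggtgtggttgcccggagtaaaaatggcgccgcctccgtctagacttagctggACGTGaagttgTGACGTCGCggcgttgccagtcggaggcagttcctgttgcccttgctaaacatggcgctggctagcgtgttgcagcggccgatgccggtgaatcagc
Psmb8: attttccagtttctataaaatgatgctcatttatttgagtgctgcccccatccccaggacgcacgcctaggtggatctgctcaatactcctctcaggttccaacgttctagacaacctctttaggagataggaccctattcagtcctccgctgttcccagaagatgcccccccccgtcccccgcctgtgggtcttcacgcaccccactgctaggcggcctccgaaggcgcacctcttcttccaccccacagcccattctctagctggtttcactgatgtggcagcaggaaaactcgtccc
Psmb6: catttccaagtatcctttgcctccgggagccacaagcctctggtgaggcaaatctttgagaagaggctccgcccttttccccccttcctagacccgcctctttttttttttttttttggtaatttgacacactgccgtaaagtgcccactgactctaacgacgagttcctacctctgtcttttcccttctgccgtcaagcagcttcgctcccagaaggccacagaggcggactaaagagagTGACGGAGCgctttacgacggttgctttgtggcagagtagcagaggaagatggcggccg
Psmb9: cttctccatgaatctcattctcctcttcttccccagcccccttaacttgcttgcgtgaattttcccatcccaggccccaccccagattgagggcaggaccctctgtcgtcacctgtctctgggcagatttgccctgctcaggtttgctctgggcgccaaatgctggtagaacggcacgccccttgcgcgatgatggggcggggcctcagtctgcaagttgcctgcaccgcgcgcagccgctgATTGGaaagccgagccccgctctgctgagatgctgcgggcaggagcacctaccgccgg

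The motifs searched, on both strands, were the antioxidant response element core TGACNNNGC, which Nfe2l1 and its relative Nfe2l2 bind, the CCAAT box, the Nr4a1 response element AAAGGTCA, the interferon-stimulated response element core (GAAA followed, after any 2 bases, by GAAA) and the hypoxia response element core ACGTG. Overlapping matches were allowed. The Psmb5 promoter held ACGTG beginning 58 bases and TGACGTCGC beginning 47 bases before the start, and that of Psmb6 held TGACGGAGC beginning 9 bases before it. The Psmb9 promoter held the reverse of a CCAAT box, and that of Psmb8 no match. A promoter was given for 41 of the tested proteasome genes. A gene was counted when any of its promoters held a match. The antioxidant core was found in 6 of these genes (14.6%) against 16.9% of all tested genes with a promoter given. The CCAAT box was in 14 (34.1%) against 44.1%, the hypoxia core in 8 (19.5%) against 30.3%, and the interferon core in 5 (12.2%) against 3.3%. The last 5 were Psmb3, Psmd4, Psmd9, Psme1 and Psmg4. The Nr4a1 element was in 0 of the 41 and in 1.0% of all tested genes with a promoter given. These are matches of letters in a short window and not binding sites.

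The alpha ring moved together, with smaller medians than the beta ring. All 7 tested subunits rose with overexpression, by a median of 0.374, and 6 fell with EGCG relative to overexpression, by a median over the 7 of -0.247. Psma5 was at 27.0, 29.8 and 25.96 TPM with EGCG, 38.5, 38.5 and 37.2 TPM with overexpression and 24.8, 27.3 and 26.3 TPM in control. It had the largest rise of the ring (0.53 ± 0.0616 SE; limma adjusted p = 9.7e-05) and fell by 0.45 with EGCG (limma adjusted p = 0.000318). Psma1 followed it, with a rise of 0.47 ± 0.0582 SE (limma adjusted p = 0.000144) and a fall of 0.28 (limma adjusted p = 0.00346). The smallest rises were in Psma3, by 0.23 ± 0.0492 SE (limma adjusted p = 0.00314), and in Psma2, by 0.18 ± 0.0554 SE (limma adjusted p = 0.0213). Under quantile normalization Psma3 had a log2 fold change of 0.032 with EGCG, opposite in sign. Psma2 was the exception with EGCG. It was at 28.3, 29.0 and 29.4 TPM with EGCG, 28.1, 29.5 and 28.6 TPM with overexpression and 23.7, 25.2 and 27.1 TPM in control. The EGCG and overexpression values thus overlapped, and both groups lay above control. Its rise with overexpression was lost under median-ratio, quantile and nuclear protein-coding scaling, where the log2 fold change was 0.028 to 0.094, and when control library 1 or 2 or overexpression library 2 or 3 was left out, where it was 0.131 to 0.18.

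Among the ATPases of the base, which unfold the substrate and open the gate of the core, 5 of 6 rose with overexpression and the same number fell with EGCG relative to overexpression. The medians, 0.656 and -0.639, were the furthest from 0 of the role groups with more than 3 tested genes. Psmc5 was at 21.96, 25.6 and 22.4 TPM with EGCG, 45.9, 44.0 and 44.3 TPM with overexpression and 24.3, 21.3 and 22.7 TPM in control. The overexpression libraries held about 1.97 times the control mean (log2 fold change 0.95 ± 0.0699 SE; limma adjusted p = 7.08e-06), and the fall with EGCG was 0.92 (SE 0.0699; limma adjusted p = 1.33e-05). Psmc4 was at 41.8, 41.5 and 40.2 TPM with EGCG, 64.6, 64.0 and 64.3 TPM with overexpression and 33.3, 36.5 and 37.0 TPM in control (0.84 ± 0.0513 SE; limma adjusted p = 2.87e-06). Here the EGCG libraries fell between the other groups without overlap. Psmc1 had the smallest rise of the 5, 0.54 ± 0.0829 SE (limma adjusted p = 0.000505).

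Psmc6 was the ATPase that was not called. Summed over its transcripts it was at 46.8, 44.7 and 49.4 TPM with EGCG, 54.9, 52.3 and 51.7 TPM with overexpression and 59.8, 55.9 and 47.6 TPM in control, and its log2 fold change was -0.03 ± 0.0811 SE for overexpression against control (limma adjusted p = 0.751). Its transcripts differed in direction. The protein-coding Psmc6-201 was at 29.1, 29.5 and 28.6 TPM with EGCG, 38.7, 38.4 and 38.9 TPM with overexpression and 28.6, 29.0 and 28.9 TPM in control. In a fit of all single transcripts it rose with overexpression by 0.41 ± 0.0363 SE (limma adjusted p = 8.68e-05) and fell with EGCG by 0.40 (SE 0.0363; limma adjusted p = 0.000148). The other transcripts of Psmc6 summed to 17.7, 15.2 and 20.8 TPM with EGCG, 16.2, 13.9 and 12.8 TPM with overexpression and 31.2, 26.8 and 18.7 TPM in control. Among them Psmc6-206, a processed transcript, fell by 1.49 with overexpression (SE 0.0931; limma adjusted p = 2.02e-05). The protein-coding share of the gene was 62.0% ± 4.08 with EGCG, 73.1% ± 2.43 with overexpression and 53.5% ± 6.55 in control (SD, n = 3 each).

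Of the 11 non-ATPase subunits of base and lid, 9 rose with overexpression (median 0.277) and all 11 fell with EGCG relative to overexpression (median -0.323). Psmd2, a scaffold of the base that docks ubiquitin receptors, was at 42.5, 46.6 and 41.3 TPM with EGCG, 65.4, 61.9 and 64.6 TPM with overexpression and 37.2, 36.0 and 37.5 TPM in control (0.78 ± 0.0555 SE; limma adjusted p = 6.02e-06). Psmd6, a lid subunit, was at 34.2, 35.4 and 30.6 TPM with EGCG, 52.4, 50.4 and 51.9 TPM with overexpression and 30.4, 31.9 and 33.5 TPM in control (0.68 ± 0.0634 SE; limma adjusted p = 2.63e-05). For Psmd2 the 3 groups were separate, and for Psmd6 the EGCG and control libraries overlapped. Psmd3 and Psmd7, also of the lid, were the ones not called. Psmd3 was at 8.21, 9.84 and 9.80 TPM with EGCG, 11.8, 11.4 and 11.3 TPM with overexpression and 10.4, 11.2 and 10.6 TPM in control (0.09 ± 0.0696 SE; limma adjusted p = 0.283). Psmd7, the partner of the deubiquitinase Psmd14, was at 8.22, 10.7 and 10.2 TPM with EGCG, 15.5, 14.5 and 14.1 TPM with overexpression and 14.2, 13.5 and 11.6 TPM in control (0.16 ± 0.0997 SE; limma adjusted p = 0.193). Both fell with EGCG relative to overexpression, by 0.28 and 0.56 (limma adjusted p = 0.00774 and 0.00141). Psmd14 itself rose by 0.27 with overexpression (SE 0.061; limma adjusted p = 0.00448), and its transcripts again split. Protein-coding Psmd14-201 rose by 0.42 (SE 0.0521; limma adjusted p = 0.000469), while the processed transcript Psmd14-202, at 1.26, 0.83 and 1.23 TPM with overexpression and 4.71, 4.08 and 3.12 TPM in control, fell by 1.23 (SE 0.306; limma adjusted p = 0.012).

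**Figure D4:**
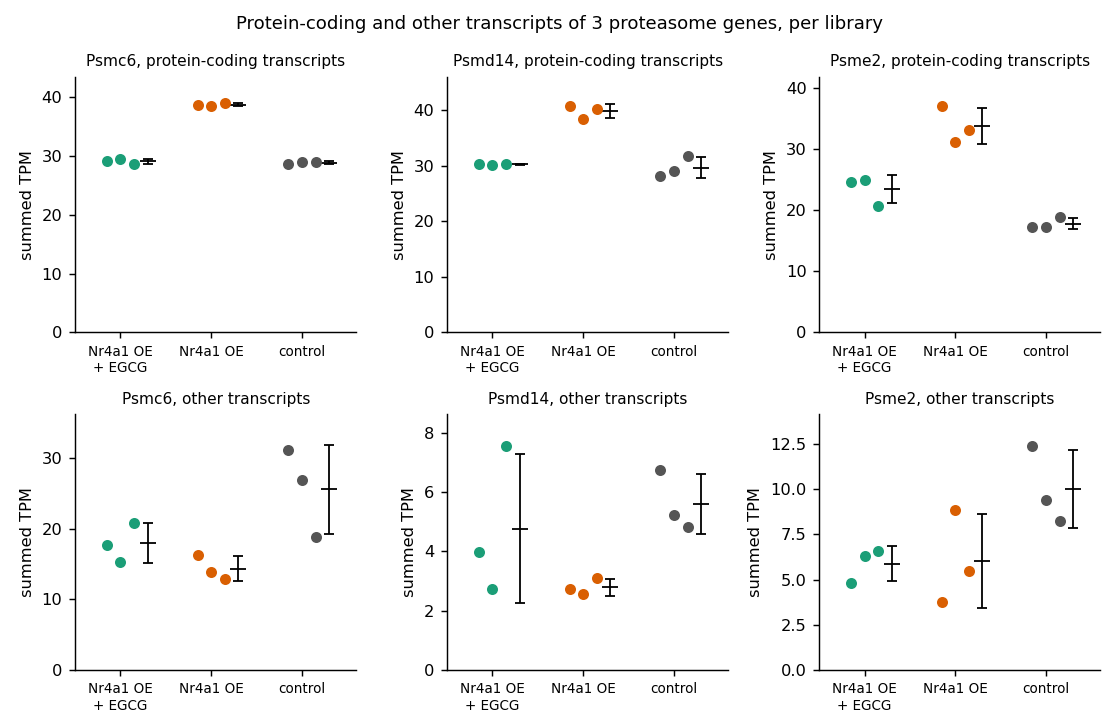
Summed TPM (y axis, linear from 0) of the protein-coding transcripts (top) and of all other transcripts (bottom) of Psmc6, Psmd14 and Psme2 in each library, with the mean and SD of 3 libraries beside the points. The protein-coding sums are highest with overexpression in all 3 genes, whereas the other transcripts have their highest mean in control.

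The activators, which open the core without the cap, and the inhibitor were split. Psme2, a subunit of the interferon-inducible activator, was at 29.3, 31.2 and 27.3 TPM with EGCG, 40.6, 39.9 and 38.6 TPM with overexpression and 29.7, 26.7 and 27.0 TPM in control. It rose by 0.50 ± 0.063 SE with overexpression (limma adjusted p = 0.000147) and fell by 0.43 with EGCG (limma adjusted p = 0.00049). Its partner Psme1 was at 19.2, 18.99 and 21.8 TPM with EGCG, 23.8, 22.3 and 22.2 TPM with overexpression and 24, 23.4 and 21 TPM in control, and was not called against control (limma adjusted p = 0.993) or with EGCG (-0.18 ± 0.071 SE; limma adjusted p = 0.0547). The difference between the changes of Psme1 and Psme2 was not tested. Psme3, the nuclear activator, had 20.8 ± 0.41 TPM with overexpression and 20.9 ± 1.8 TPM in control (SD, n = 3 each; limma adjusted p = 0.983). Psme4, an activator of the nucleus, rose by 0.29 ± 0.0532 SE (limma adjusted p = 0.0014), and Psmf1, which inhibits the core in cell-free assays, by 0.45 ± 0.0701 SE (limma adjusted p = 0.000501). Within Psme2, protein-coding Psme2-208 rose by 0.98 (SE 0.11; limma adjusted p = 0.000275) and the intron-retaining Psme2-207 fell by 1.33 (SE 0.409; limma adjusted p = 0.0285).

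Assembly factors, which are absent from the finished particle, were 5 of 7 higher with overexpression (median 0.44). Psmg3, a chaperone of the alpha ring, was at 8.16, 8.11 and 6.01 TPM with EGCG, 11.4, 10.99 and 10.2 TPM with overexpression and 6, 5.8 and 6.65 TPM in control (0.73 ± 0.104 SE; limma adjusted p = 0.000325). Psmd9, a chaperone of the base, was at 5.02, 4.74 and 5.79 TPM with EGCG, 9.15, 8.93 and 9.22 TPM with overexpression and 5.69, 5.54 and 5.45 TPM in control. Its rise of 0.62 ± 0.0657 SE with overexpression (limma adjusted p = 5.27e-05) and its fall of 0.71 with EGCG (limma adjusted p = 3.5e-05) left EGCG and control overlapping. Psmg4, the usual partner of Psmg3, was at 19.7, 19.6 and 14.4 TPM with EGCG, 16.9, 16.5 and 18.7 TPM with overexpression and 16.9, 16.8 and 20.9 TPM in control, and was not called (-0.06 ± 0.125 SE; limma adjusted p = 0.71). All 3 of its groups overlapped. Psmd10, also known as gankyrin, lay wholly above control, at 7.42, 6.61 and 7.49 TPM with overexpression and 6.32, 6.35 and 6.25 TPM in control, and missed the threshold (0.16 ± 0.0623 SE; limma adjusted p = 0.0506). Psmg1 and Psmg2, which pair to guide the alpha ring, rose by 0.42 and 0.44, and Psmd5, a chaperone of the base, by 0.48.

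The symbol rule also took in Psmc3ip, a recombination factor named for binding Psmc3, and Psme2b, a copy of Psme2. Psmc3ip rose by 0.27 ± 0.0615 SE with overexpression (limma adjusted p = 0.00475), but its protein-coding transcript had a log2 fold change of -0.14 and was not called, and the rise lay in the intron-retaining Psmc3ip-202. Psme2b rose by 0.59 ± 0.107 SE (limma adjusted p = 0.00132) at 1.73 ± 0.111 TPM with overexpression and 0.83 ± 0.278 TPM in control (SD, n = 3 each). Whether reads were shared with Psme2 was not measured, so the value is uncertain.

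The second comparison set EGCG against overexpression. Of the 48 tested genes, 39 fell, 2 rose and 7 were not called by limma, where 53.0% of all tested genes changed, 34.1% falling and 18.8% rising. The median log2 fold change was -0.348 over the 48 genes and -0.088 over all tested genes. In 44 genes every EGCG library lay below every overexpression library, in 1 above, and in 3 the groups overlapped, against 41.4% of all tested genes wholly below and 23.2% wholly above. The 2 that rose were Psmb8 and Psmb9. The beta ring fell in all 7 members, with Psmb5 and Psmb4 (-0.70 ± 0.141 SE; limma adjusted p = 0.00294) changing most. Of the 7 not called, Psmc6, Psmd5, Psme1, Psme3 and Psmg2 lay wholly below the overexpression libraries, by 0.14 to 0.18 on the log2 scale, and Psma2 and Psmg4 overlapped them. This comparison shares its overexpression libraries with the first. Rescaling to nuclear protein-coding genes moved the median of all genes to 0.03, with 3240 higher and 2551 lower in place of 2250 and 4080. On that scale the median of the 48 genes was -0.212, with 27 lower and 3 higher, the added rise being that of Psma2.

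The last comparison set EGCG against control. Of the 48 genes, 5 were higher and 1 was lower by limma, while 18.2% of all tested genes changed, 11.1% higher and 7.10% lower. At an unadjusted p of 0.05 in the same limma fit 10 were higher and 8 lower, beside 2445 higher and 1800 lower of all 11950 genes tested. The median log2 fold change was 0.046 over the 48 genes and 0.021 over all tested genes. The groups did not overlap in 8 genes that were higher and 6 that were lower, against 21.0% and 13.8% of all tested genes. The higher genes were Psma2 (0.18 ± 0.0554 SE; limma adjusted p = 0.049), Psmc4 (0.21 ± 0.0513 SE; limma adjusted p = 0.0262), Psmd2 (0.23 ± 0.0555 SE; limma adjusted p = 0.0249), Psmd5 (0.34 ± 0.081 SE; limma adjusted p = 0.0237) and Psmg2 (0.28 ± 0.0782 SE; limma adjusted p = 0.0391). Psmd5 was at 11.5, 11.8 and 11.4 TPM with EGCG and 8.61, 8.14 and 10.2 TPM in control. Psmd7 was the lower gene, by 0.40 (SE 0.0997; limma adjusted p = 0.0266). Not called were Psma1 and Psma3 to Psma7 of the alpha ring, all 7 of the constitutive beta ring, Psmb8, Psmb9 and Psmb10, the ATPases Psmc1, Psmc2, Psmc3, Psmc5 and Psmc6, and 9 of the base and lid (Psmd1, Psmd3, Psmd4, Psmd6, Psmd8, Psmd11, Psmd12, Psmd13 and Psmd14). The same held for all 5 activators and the inhibitor, for Psmd9, Psmd10, Psmg1, Psmg3 and Psmg4 among the assembly factors, and for Psmc3ip and Psme2b. These counts were fragile. Without the third control library 11 genes were higher and 5 lower, and under median-ratio scaling 3 were higher and 4 lower. Without the first or the second control library, or without the first EGCG library, limma called 0 genes in either direction, with 8 or 9 higher and 2 to 5 lower at an unadjusted p of 0.05. The same was true of a fit of only the 6 libraries compared, with 9 higher and 4 lower at an unadjusted p of 0.05. Without the second EGCG library it called 0 higher and 1 lower, and without any single overexpression library 3 higher and 1 lower. That control library held the highest value of its group in 24 of the 48 genes.

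Transcripts were also tested singly, a choice made after the data were seen, since the split of reads between transcripts of a gene is an estimate. Of 67 protein-coding transcripts of these genes with enough TPM, 48 rose and 0 fell with overexpression by limma, with 2 below control at an unadjusted p of 0.05. Psmb10-201, among the 48, reached 1 TPM only with overexpression and so entered the test only through the group where it was high. Over all 23437 transcripts tested 29.9% rose and 16.4% fell, and among protein-coding transcripts of protein-coding genes 33.9% rose and 16.3% fell. With EGCG relative to overexpression 44 of the 67 fell and 1 rose, where 21.7% and 11.5% of all transcripts did. The riser was Psmb9-204, at 1.51, 1.28 and 1.25 TPM with EGCG. It was under 1 TPM in every other library, so it entered the test only through the EGCG group. With EGCG relative to control Psma2-201, Psmd2-201 and Psmd5-202 rose and 0 fell by limma, with 7 lower at an unadjusted p of 0.05, where 6.41% and 4.56% of all transcripts did. Of 29 intron-retaining transcripts of the same genes 9 were higher (31%) and 2 lower (6.9%; Psmc6-203 and Psme2-207) with overexpression, where 20% and 14.5% of the intron-retaining transcripts of all protein-coding genes were. Psmb10-207, among the 9, also reached 1 TPM only with overexpression. With EGCG relative to overexpression 5 of the 29 were lower (17.2%), where 8.33% of the intron-retaining transcripts of all protein-coding genes were. Of 13 other non-coding transcripts, 3 rose with overexpression (23.1%), from Psmb10, Psmc3 and Psmc5, and 5 fell (38.5%), 3 of them from Psmc6 and the others from Psma3 and Psmd14. Over all protein-coding genes 21.7% of such transcripts rose and 17.4% fell.

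By level, Psmb6 was the most abundant of the 31 constitutive subunits in each group, at 80.3 ± 1.72 TPM with EGCG, 110.0 ± 2.97 TPM with overexpression and 76.7 ± 2.29 TPM in control (SD, n = 3 each). Psmd3 was the least abundant in each, at 9.28 ± 0.93, 11.5 ± 0.295 and 10.7 ± 0.394 TPM in the same order. TPM is per length, so genes can be set beside each other. These levels and ranks use all transcripts of a gene, non-coding ones included. From protein-coding transcripts alone, Psmd3 was at 9.67 ± 0.412 TPM and Psmd11 at 9.57 ± 0.846 TPM in control (SD, n = 3 each). Psma7 and Psma3 took ranks 2 to 4 in every group and overlapped each other in the EGCG and the control libraries. Psmb4 stood at rank 4 with EGCG, rank 2 with overexpression and rank 8 in control, and Psmc4 at ranks 11, 5 and 15. Psmc6 moved the other way, at rank 6 with EGCG, 12 with overexpression and 4 in control. The places of Psma3 and Psmc6 rested in part on non-coding transcripts. From protein-coding transcripts alone, Psma3 was at 34.3, 42.0 and 34.6 TPM by mean with EGCG, with overexpression and in control. Psmc6 was at 29.1, 38.7 and 28.8 TPM, highest with overexpression. The immunoproteasome subunits were low, with no library above 8.99 TPM. The assembly factors lay between 5.18 TPM for Psmd9 with EGCG and 18.2 TPM for Psmg4 in control by group mean. The median coefficient of variation over the 48 genes was 5.05% with EGCG, 3.46% with overexpression and 6.38% in control.

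**Figure D5:**
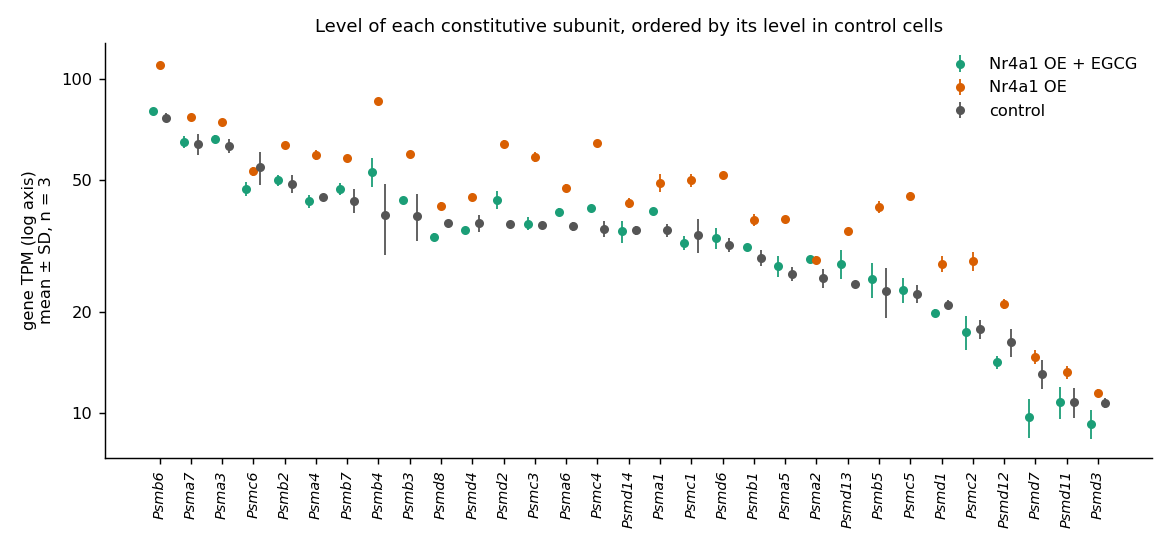
Mean gene TPM (y axis, log scale; bars are SD of 3 libraries) of the 31 constitutive subunits in the EGCG, overexpression and control groups, ordered along the x axis by the mean in control. Psmb6 is highest and Psmd3 lowest in every group, and the overexpression points lie above the control points except at Psmc6. Gene TPM is summed over all transcripts, non-coding ones included.

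Genes that work with the proteasome but carry other symbols moved in the same direction in part. Of 17 partners, 11 rose and 3 fell with overexpression (median 0.3; 38.2% and 21.3% of all tested genes did). With EGCG relative to overexpression 11 of them fell, 1 rose and 5 were not called, where 34.1% of all tested genes fell and 18.8% rose. Adrm1, a ubiquitin receptor of the cap, was at 14.3 ± 1.37 TPM with EGCG, 25.1 ± 0.411 TPM with overexpression and 13.5 ± 1.29 TPM in control (SD, n = 3 each). It rose by 0.85 (limma adjusted p = 3.02e-05) and fell with EGCG by 0.78. The ubiquitin ligase Ube3c, the deubiquitinase Usp14 and the stress-induced Zfand2a rose by 0.73, 0.68 and 0.73. Among those that fell with overexpression, Rad23b and Ubqln1 carry ubiquitinated proteins to the proteasome and changed by -0.35 and -0.29. Of 6 genes for ubiquitin and its activating enzymes 5 rose, with Uba1 at 48.1 ± 1.1, 75.03 ± 2.6 and 38.4 ± 1.2 TPM in the EGCG, overexpression and control groups (SD, n = 3 each) and with Ubb, Uba6 and Rps27a rising by 0.81, 0.28 and 0.20.

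Of 11 genes of the Nfe2l1 pathway, 4 rose and 3 fell with overexpression, where 38.2% of all tested genes rose and 21.3% fell. Nfe2l1 itself, named after its values were seen, was at 27.2 ± 1.71, 27.5 ± 1.67 and 28.1 ± 1.91 TPM with EGCG, with overexpression and in control (SD, n = 3 each) and was not called in overexpression against control (limma adjusted p = 0.772). Vcp, which extracts proteins from membranes, rose by 0.77, the ligase Syvn1 by 0.60, the deglycosylating enzyme Ngly1 by 0.31 and the protease Ddi2, which cuts Nfe2l1, by 0.23. Maff, a small partner of these factors, was at 6.11 ± 0.682, 2.25 ± 0.188 and 6.73 ± 0.71 TPM in the same 3 groups (SD, n = 3 each) and fell by 1.25 with overexpression (limma adjusted p = 7.09e-06). Nfe2l2 and Mafk fell by 0.26 and 0.21. The activity of Nfe2l1 is set largely after translation and was not measured. Of 12 tested genes of class I antigen presentation 7 rose and 2 fell, beside the same shares of 38.2% and 21.3%. Calr and Tapbpl rose by 0.90 and 0.81, Pdia3 by 0.34, and Irf1, a transcription factor known to induce Psmb8 and Psmb9, was at 9.32 ± 0.89, 5.53 ± 0.0802 and 9.41 ± 0.825 TPM with EGCG, with overexpression and in control (SD, n = 3 each) and fell by 0.67 (limma adjusted p = 9.8e-05). The peptide trimmer Erap1 fell by 0.33. Tap1 and Tap2 rose with EGCG relative to overexpression by 0.31 and 0.15 (limma adjusted p = 0.0433 and 0.0438). The COP9 signalosome has an architecture that resembles the lid. By limma 8 of its 10 genes were higher and 0 lower with overexpression, beside the same shares of 38.2% and 21.3%. The median was 0.399, and 0 were lower also at an unadjusted p of 0.05. Cops3, Gps1, Cops7b and Cops8 rose by 0.46, 0.60, 0.59 and 0.75. With EGCG relative to overexpression 8 of the 10 fell by limma, where 34.1% of all tested genes did.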

How the data were processed

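RNA was sequenced in 9 libraries of MIN6 cells, 3 in each of 3 groups, with groups and replicate numbers taken from the sample titles. The authors deposited TPM per transcript. Per the submitters' processing notes the tools were RSEM 1.2.31, STAR 2.7.1a, cutadapt 2.8, FastQC 0.11.9 and bcl2fastq 2.20, with the GRCm39 build. No annotation release or strand setting is stated. Every library sums to 1000000 TPM within rounding, so a rise of abundant RNAs lowers all others. Per the labels' protocols the kit was a stranded total RNA kit.

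Of 142435 transcript identifiers 97.13% matched GENCODE M21, an older build used for names and transcript types alone; the unmatched held 18.0% to 20.6% of the TPM of a library. TPM was summed per gene, giving 52408 genes. Genes reaching 1 TPM in 3 or more libraries, 11950 in all, entered limma 3.58.1 (R 4.3.3) on log2(TPM + 1) with a mean-variance trend, all 9 libraries in a single fit and no replicate block, two-sided, with Benjamini-Hochberg adjustment at 0.05 within each comparison. Fold changes are on that scale, and their errors are limma's SE. No count model was used, as TPM is no count. The fit was also run on simulated data with independent noise and few changed genes. That setting does not cover changes as widespread as those seen here. Ratios were tested with exact permutations. Other steps used Python 3.11.15, pandas 2.3.3 and matplotlib 3.10.9.

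The proteasome genes, the lists and the motifs were chosen with earlier results of these data known, so no list gets a p-value of its own; counts and medians are set beside those of all genes. Of the symbols, 4 belong to non-coding genes and were left out. RefSeq promoters (GRCm38.p6) matched 42 of the 50 genes; those of Psma8, Psmb1, Psmb2, Psmb7, Psmc3, Psmd3, Psmd7 and Psmg2 were not used here. Named in full were the catalytic subunits, the 2 highest and 2 lowest fold changes of overexpression against control in each role group and every tested gene not called; from each other list came up to 4 called genes with the smallest adjusted p. Rad23b, Ubqln1, Rps27a, Ddi2, Nfe2l2, Mafk, Erap1, Tap1, Tap2, Nfe2l1 and the single transcripts were named after their values were seen.

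Alternatives, 21 in all, covered the pseudocount, the filter, scaling, transcript type, the libraries fitted, the variance trend, a replicate block and leaving out each library.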

Additional observations from a re-analysis of the deposited data

How the results depend on the processing

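Over the 21 alternatives overexpression against control called 31 to 40 genes higher and EGCG against overexpression 24 to 43 lower. Under quantile normalization overexpression against control called 4 lower, and with at least 5 TPM 1, since Psmb9 was then not tested. EGCG against overexpression called 27 genes in all and 24 lower under quantile normalization; the cause was not tested. It called 1 higher with no filter, with at least 5 TPM, with only the 6 libraries compared and with a replicate block, and 1 to 2 when a library was left out. EGCG against control called 12 genes (11 higher) among nuclear protein-coding genes, 15 (14 higher) when rescaled without the 10 most abundant genes, Nr4a1, small RNAs and mitochondrial genes, and 0 in either direction with only the 6 libraries compared (limma, 9 higher and 4 lower at an unadjusted p of 0.05). Leaving out a library gave 0 to 16 calls, 0 to 11 higher and 0 to 5 lower. It called 3 higher with no filter or under median-ratio scaling, and 4 lower under median-ratio scaling, 3 under quantile normalization and 2 from protein-coding transcripts.

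Deviations of same-numbered libraries of different groups correlated at -0.021 to 0.214 and those of differently numbered ones at -0.238 to 0.121. The 3 highest were same-numbered, but not every same-numbered pair exceeded 0.1, and not every library correlated best with its own number, so numbers were not taken to pair samples. With a replicate block the calls were 39 higher and 2 lower in overexpression against control, 1 and 37 in EGCG against overexpression and 0 and 0 in EGCG against control (8 and 7 at an unadjusted p of 0.05).

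From protein-coding transcripts alone the log2 ratio of Psmb9 to Psmb6 differed by -1.63 in overexpression minus control and by 1.53 in EGCG minus overexpression, and that of Psmb10 to Psmb7 by 1.13 in overexpression minus control and 0.43 in EGCG minus control. Of single values called as reported or under the alternative, 3 changed sign: Psmc6 (0.41) and Psmc3ip (-0.14) from protein-coding transcripts in overexpression against control, and Psma3 (0.032) under quantile normalization in EGCG against overexpression. In overexpression against control 25 of the single-gene values over all alternatives lost their call and 6 gained one; in EGCG against overexpression 72 and 16, and in EGCG against control 50 and 38.

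Without read counts the depth behind low genes, such as Psmb9 and Psmb10, cannot be judged, and the split between transcripts is an estimate.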
